A study of Homo sapiens with 2 samples.

Results

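The proteasome is the large protease that degrades proteins tagged with ubiquitin. Its barrel-shaped core has outer rings of alpha subunits, which control entry, and inner rings of beta subunits, which cut the substrate, and a regulatory particle with a base of ATPases and a lid recognises, unfolds and feeds in tagged proteins. Cells make its subunits in a balanced set, and a deficit of proteasome activity is known to raise the genes of the whole set through the transcription factor NFE2L1. Transcripts of these genes were compared between OAW42, a human serous ovarian carcinoma cell line that responds to cisplatin, and OAW42-R, a cisplatin-resistant line derived from it by exposure to rising doses of the drug with recovery between treatments. Both lines were grown in the same insulin-supplemented medium under normal conditions with no drug on them, and total RNA of each was hybridised to 1 whole-transcript array. The sources used here do not say whether OAW42-R is a single clone.

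The genes were those whose platform symbol is PSMA, PSMB, PSMC, PSMD, PSME, PSMF or PSMG with a number, which gave 45 genes of 22398 in all, each measured by 1 transcript cluster (the set of probes for a gene) outside the alternative haplotypes. They were chosen by name and not by their values. PSMC5, PSMD7 and PSMD13 were not analysed here. Since each line had a single array (1 per line) and no replicate, the error of a signal is unknown and no difference was tested, and the state of the culture cannot be told apart from the line. Values are log2 RMA signals (normalised array brightness), and a difference is the log2 signal of OAW42-R less that of OAW42. Where 2 signals stand side by side, that of OAW42-R comes first. The floor for a measurable signal was the median of all clusters on an array (6.34 and 6.30), to be reached by the brighter of both arrays. This held for 15914 genes and for 43 of the 45 proteasome genes. All 7 epithelial and ovarian markers examined were above the floor, with EPCAM, KRT8, KRT18 and PAX8 at 10.03 or more on both arrays, KRT7 at 7.94 or more, and WT1 (6.75 and 6.83) and MUC16 (6.89 and 6.74) nearer to it. These markers were not all equal in both lines, since EPCAM was 0.67 higher in OAW42-R (10.70 and 10.03) and PAX8 0.27 higher (11.67 and 11.40), and their part in the results was not tested. The leukocyte marker PTPRC lay below it (4.21 and 4.25), CD3E and CD14 lay near it, and CD68, a lysosomal protein found also outside leukocytes, had 10.47 and 10.56. Of the fibroblast markers 2 of 5 were above the floor, COL1A1 (7.83 and 7.91) and COL1A2 (6.72 and 6.72), and of the endothelial markers 2 of 3, VWF (6.77 and 6.82) and CDH5 (6.73 and 6.70).

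Proteasome transcripts were close to equal in both lines, with a small lean towards OAW42. Of the 43 genes above the floor, 32 were lower and 11 higher in OAW42-R, that is 74.4% lower, where 49.7% of all genes above the floor were lower and 46.6% higher. The median difference was -0.05, a 1.04-fold lower signal, against 0.00 over all genes. The largest differences were those of PSMB2, a structural beta subunit, at 0.31, PSMD5, an assembly chaperone of the ATPase base, at -0.29, and PSMC1, an ATPase of the base, at -0.27.

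No proteasome gene reached 1.5-fold, which 2.02% of all genes passed on the higher side and 1.31% on the lower side. No proteasome gene reached 2-fold either, where the shares were 0.54% and 0.339%. At least 1.2-fold higher was 1 proteasome gene, PSMB2, and 2 were at least 1.2-fold lower, PSMC1 and PSMD5. Over all genes above the floor the shares past 1.2-fold were 9.11% on the higher side and 7.35% on the lower side. Both shares among proteasome genes (2.33% and 4.65%) were below those of all genes, but they rest on 1 and 2 genes of 43. Differences also spread less, with an SD over the 43 genes of 0.12 against 0.27 over all genes, and 38 of 43 genes (88.4%) lay within 0.2 of 0, against 75.1%. The SD of all genes includes differences from -4.99 to 3.48. By quartiles the contrast was smaller, from -0.12 to 0.01 against -0.10 to 0.11. Within 0.1 of 0 the shares were closer, at 24 of 43 genes (55.8%) against 50.3%. Because signals were deposited with 2 decimals, the PSMC1 difference of -0.27 and the 1.2-fold limit of 0.263 are closer than the rounding step of 0.01, and PSMD2 at -0.24 lay just inside the limit.

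**Figure D1:**
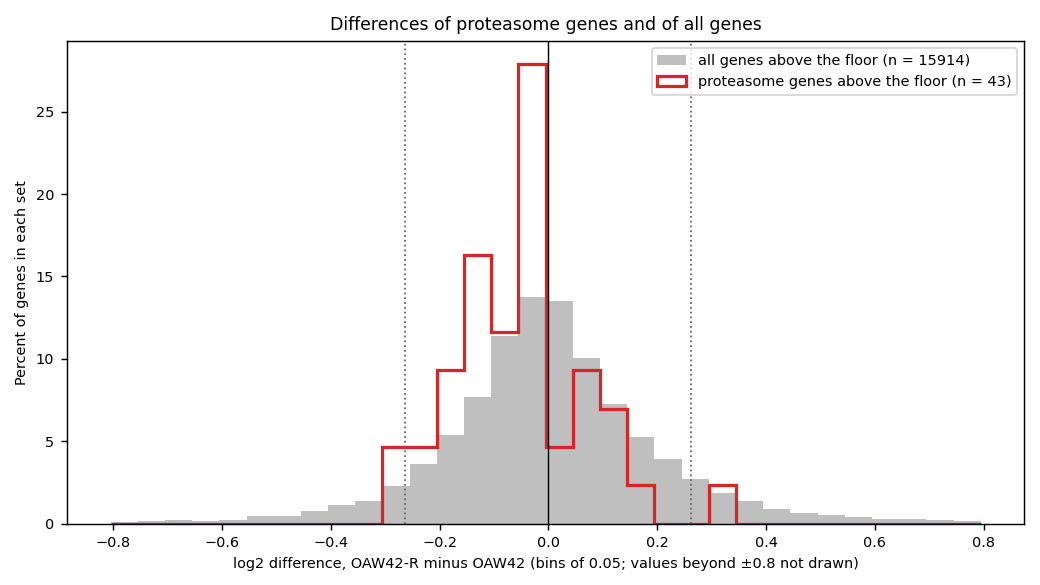
Percent of genes (y axis) by log2 difference, OAW42-R minus OAW42 (x axis, bins of 0.05), for all 15914 genes above the floor (grey) and the 43 proteasome genes above it (red line); dotted lines mark 1.2-fold. The proteasome genes form a narrower distribution, with 32 of 43 below 0.

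The alpha ring forms the outer walls and the gate of the core. All 7 of its genes were lower in OAW42-R, and their median was -0.06. PSMA7 had signals of 9.90 and 10.08, a difference of -0.18. PSMA6 had 10.44 and 10.59, a difference of -0.15, and PSMA2 had 9.47 and 9.58, a difference of -0.11. The others were nearer to 0, with PSMA4 at -0.06 (10.14 and 10.20) and PSMA3 at -0.04 (10.23 and 10.27). PSMA1 (10.10 and 10.11) and PSMA5 (8.68 and 8.69) differed by a single rounding step. The shared direction of the ring thus rests on differences of which the largest is 1.13-fold.

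The constitutive beta ring, which carries the proteolytic sites, did not share that direction. Of its 7 genes 5 were higher in OAW42-R and 2 lower, with a median of 0.10. PSMB2 had signals of 9.29 and 8.98, a 1.24-fold higher value and the largest difference of any proteasome gene in either direction. PSMB4, a structural subunit, had 8.96 and 8.83, a difference of 0.13. PSMB3, also structural, had 12.22 and 12.15. Its difference of 0.07 became -0.025 when the arrays were quantile normalised again, which left 4 of the 7 genes higher. PSMB1 differed by -0.09, with signals of 9.32 and 9.41. The subunits that cut differed among themselves. PSMB6, which has the caspase-like site, had 10.43 and 10.27 (0.16), and PSMB7, which has the trypsin-like site, had 10.25 and 10.15 (0.10). PSMB5, which has the chymotrypsin-like site and is the main target of proteasome inhibitors, had 9.44 and 9.63 and went the other way, by -0.19.

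Interferon induces replacements for the catalytic subunits, which together form the immunoproteasome and favour peptides suited to antigen presentation. PSMB8, which replaces PSMB5, had signals of 7.28 and 7.33, a difference of -0.05. PSMB9, which replaces PSMB6, had 7.07 and 6.94, a difference of 0.13. PSMB10, which replaces PSMB7, had 7.47 and 7.44. Its difference of 0.03 was -0.01 after quantile normalisation, which also moved the median of all genes from 0.00 to -0.04. The sign of this small difference thus depended on the scaling. Set against its constitutive counterpart, the inducible subunit differed by -0.03 more for PSMB9, by -0.07 more for PSMB10 and by 0.14 more for PSMB8, all below 1.2-fold. PSMB8 and PSMB9 lie in the major histocompatibility complex and have 7 further clusters each on alternative haplotypes. Over all 8 clusters PSMB8 ranged from -0.06 to -0.03 and PSMB9 from 0.10 to 0.13. These copies stand for the same gene and are not separate measurements, with 3 and 5 distinct pairs of values among them.

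The remaining core subunits are restricted to single tissues. PSMA8, the alpha subunit of the testis, had signals of 4.19 and 4.17. PSMB11, the beta subunit of the thymic cortex, had 5.91 and 5.67. Both were below the floor on both arrays, so their differences of 0.02 and 0.24 compare levels under the floor and were left out of the counts.

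The ATPases of the base unfold the substrate and push it into the core. The 5 measured ATPase genes all had less signal in OAW42-R (median -0.13). PSMC1 had signals of 10.72 and 10.99, a 1.21-fold lower value. PSMC6 had 8.92 and 9.15 (-0.23), and PSMC4 had 11.61 and 11.74 (-0.13). PSMC2 (11.00 and 11.04) and PSMC3 (9.48 and 9.51) were near equality at -0.04 and -0.03. The other subunits of the base were lower as well. PSMD2, a scaffold that holds ubiquitin shuttle proteins, had 10.76 and 11.00, a difference of -0.24, while PSMD1, the other large scaffold, differed by -0.09 (10.48 and 10.57) and PSMD4, a ubiquitin receptor, by -0.05 (9.36 and 9.41).

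The lid removes ubiquitin chains before the substrate enters. Of its 6 measured genes 5 were lower, with a median of -0.075. PSMD12 had signals of 9.95 and 10.13 (-0.18), PSMD8 had 10.56 and 10.70 (-0.14), and PSMD11 had 11.02 and 11.13 (-0.11). PSMD14, the metalloprotease that cuts off the chains, had 9.71 and 9.73 (-0.02), and PSMD6 had 9.00 and 9.04 (-0.04). PSMD3 was the exception, with 10.68 and 10.61 (0.07).

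**Figure D2:**
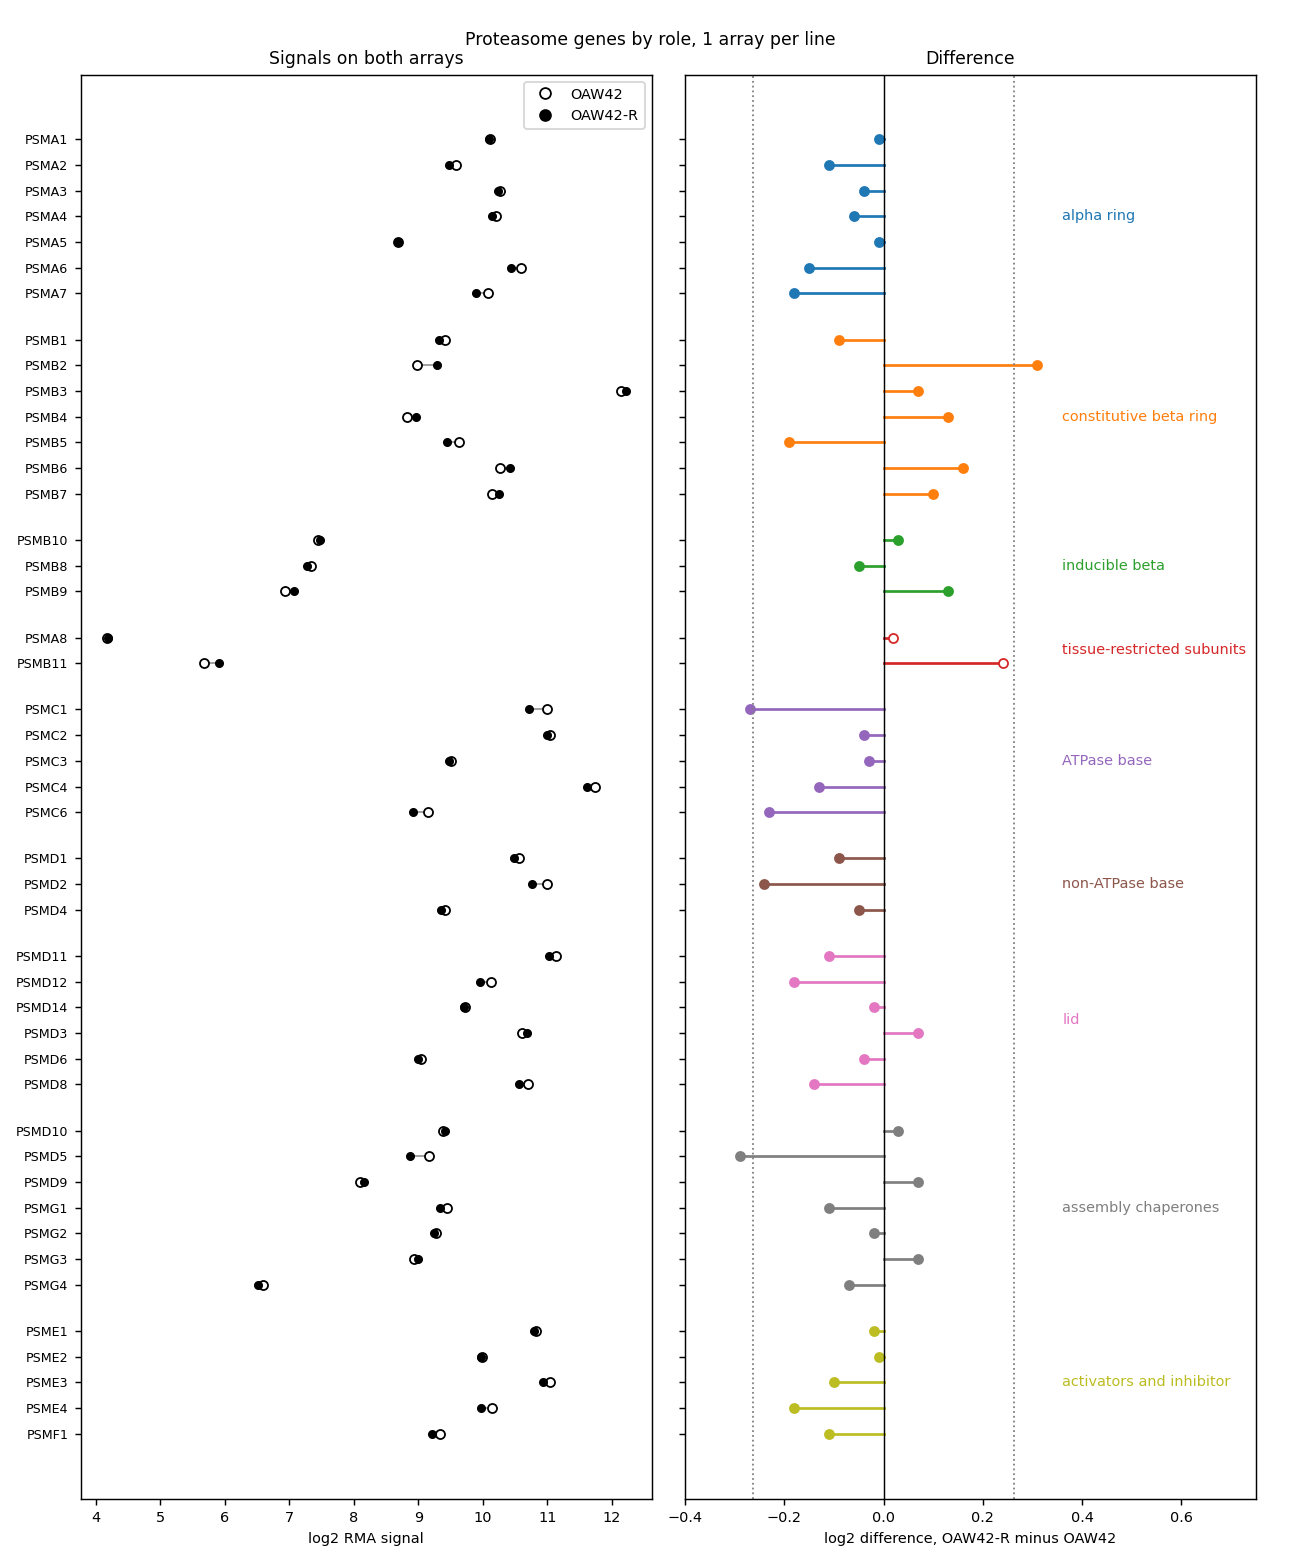
Log2 RMA signal of each of the 45 proteasome genes in OAW42 (open circles) and OAW42-R (filled circles) in the left panel, and the log2 difference OAW42-R minus OAW42 in the right panel, grouped by role; dotted lines mark 1.2-fold and open symbols on the right are genes below the floor. All measured genes of the alpha ring and the base lie left of 0, while 5 of 7 constitutive beta genes lie right of it.

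Assembly chaperones build the particle and leave it when it is complete. They went both ways, with 4 of 7 lower and a median of -0.02. PSMD5 had the most negative difference of all proteasome genes, with signals of 8.87 and 9.16. The other chaperones of the base, PSMD9 (8.16 and 8.09) and PSMD10 (9.42 and 9.39), differed by 0.07 and 0.03. Among the chaperones of the alpha ring, PSMG1 differed by -0.11 (9.33 and 9.44) and its partner PSMG2 by -0.02 (9.25 and 9.27). PSMG3 differed by 0.07 (9.00 and 8.93) and its partner PSMG4 by -0.07 (6.52 and 6.59), the latter just above the floor.

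Caps other than the regulatory particle can open the core. The 5 genes of these activators and of the inhibitor PSMF1 all had less signal in OAW42-R (median -0.10). The interferon-inducible pair PSME1 (10.80 and 10.82) and PSME2 (9.98 and 9.99) was near equality, at -0.02 and -0.01. PSME3, the related activator of the nucleus, had 10.94 and 11.04 (-0.10). PSME4, a large single-chain activator, had 9.97 and 10.15 (-0.18), and PSMF1 had 9.22 and 9.33 (-0.11).

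The size of the lean depended in part on how the arrays were scaled. After a further quantile normalisation the median of all genes moved to -0.04 and that of the proteasome genes to -0.06, so that their distance shrank from -0.05 to -0.02, and 25 of 43 proteasome genes lay below the median of all genes in place of 32. With loess the distance was -0.04, with 29 of 43 below. The alpha ring and the ATPases were grouped after their values were seen. All 12 of their genes had a negative difference under each of these scalings, with a median of -0.085 in the values as deposited. Set against the median of all genes, 12 of 12 were below it as deposited, 9 of 12 after quantile normalisation and 10 of 12 with loess. RMA makes the distributions of the arrays alike, and in bulk RNA a lower signal in every cell cannot be told apart from fewer cells that express the gene.

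Several proteasome genes lie on chromosomes whose genes lean one way, so each was set beside up to 10 genes above the floor on each side of it in the order of the RefSeq annotation. On chromosome 14, which carries 8 proteasome genes, 366 of 529 other genes (69.2%) had a negative difference, and their median was -0.07. All 7 of the proteasome genes there that were above the floor were lower, with a median of -0.15. PSMA6 at -0.15, PSMB5 at -0.19 and PSMC6 at -0.23 had neighbours with medians of -0.15, -0.15 and -0.17, and 17 of the 20 neighbours of each were lower. PSMC1 at -0.27 stood further from its neighbours, whose median was -0.06. Without chromosome 14, a choice made after the data were seen, 25 of 36 genes were lower with a median of -0.045, PSMD5 alone was at least 1.2-fold lower, and the 8 alpha ring and ATPase genes elsewhere were all lower with a median of -0.05. The neighbours' part in these values was not tested.

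Over all 43 genes the median distance from the neighbours was -0.04, and 29 genes were below them. PSMB3 and PSMD9 were counted among these at -0.005, which is less than the rounding step of 0.01. PSMD5 had neighbours with a median of 0.00 and PSMD2 neighbours with one of -0.07, so both were lower than their surroundings, by 0.29 and 0.17. PSMD14 differed by -0.02 among neighbours with a median of 0.22. PSMB2 at 0.31 had neighbours that were themselves higher, by a median of 0.11. By role, the ATPases were below their neighbours in 5 of 5 genes (median distance -0.09), the lid in 5 of 6 (-0.135) and the alpha ring in 5 of 7 (-0.025), while the constitutive beta ring was below them in 3 of 7 (0.105). Across the 43 genes, which share both arrays and in places the same neighbours, the Pearson correlation between a gene's difference and that of its neighbours was 0.50 and Spearman's rho was 0.51. Across the 36 genes outside chromosome 14 they were 0.40 and 0.44. Neither the counts below the neighbours nor the correlations were computed for all genes above the floor. They therefore have no background value here and cannot be called a trait of the proteasome genes.

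**Figure D3:**
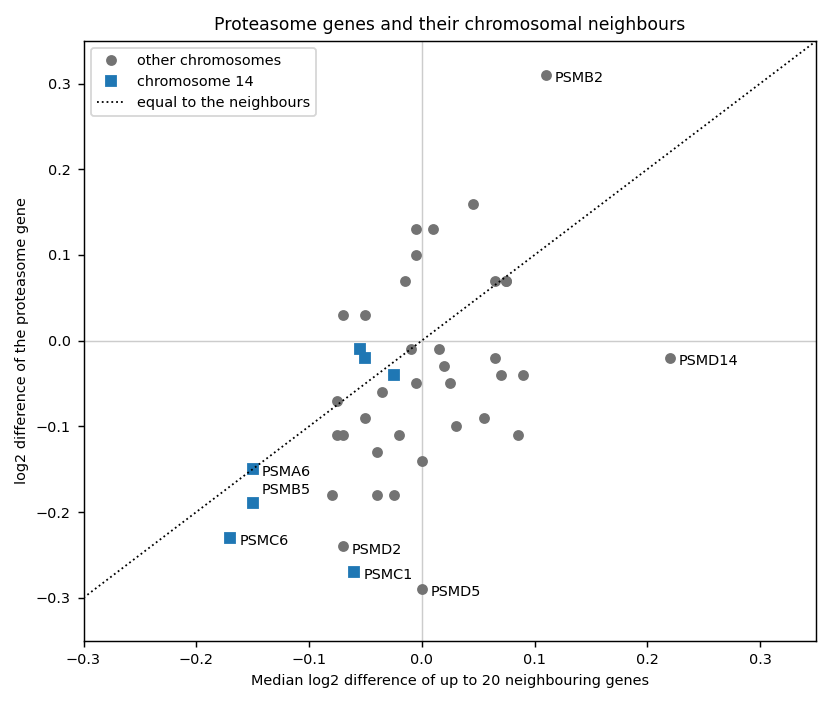
Log2 difference of each of the 43 proteasome genes above the floor (y axis) against the median log2 difference of up to 20 neighbouring genes (x axis); squares are genes of chromosome 14 and the dotted line marks equality. PSMA6, PSMB5 and PSMC6 lie close to the line, and PSMD5, PSMC1, PSMD2 and PSMD14 lie below it.

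The reference promoters of these genes were then examined, since NFE2L1 and its relative NFE2L2 bind antioxidant response elements, interferon regulatory factors bind paired GAAA repeats, and such sites could group the genes. RefSeq windows (GRCh38.p14) of 300 bases, 250 before and 50 after a start, were found for 39 of the 45 genes. The antioxidant type of motif, TGACNNNGC on either strand, occurred in 14 of the 39 genes (35.9%), against 16.1% of 27305 genes with a window. The 14 genes with a match, all above the floor, had a median difference of -0.04 and the 23 above the floor without one a median of -0.05. The matches of the genes at both ends of that range are shown on the strand of the gene, with the match in capitals. They stand for PSMD5 (-0.29), PSMD12 (-0.18), PSME4 (-0.18) and PSMB9 (0.13), and in the last 2 the match lies on the opposite strand.
PSMD5: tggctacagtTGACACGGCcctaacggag
PSMD12: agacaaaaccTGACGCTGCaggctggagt
PSME4: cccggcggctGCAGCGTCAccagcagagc
PSMB9: gggcggggctGCCTCGTCActtgtctcgg
These stretches are chr9:120843038-120843066 and chr17:67366724-67366752 on the minus strand, chr2:53971009-53971037 on the minus strand and chr6:32854034-32854062 on the plus strand, and the matches begin 134, 165, 34 and 148 bases before the start. Genes with a match thus include the lowest proteasome gene and a higher one.

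The interferon type of motif, a GAAA, any 2 bases and another GAAA on either strand, occurred in 7 of 39 genes, against 4.38% of all genes with a window. The genes with the paired GAAA were PSMA4, PSMB4, PSMB8, PSMB10, PSME1, PSME2 and PSMG4, with a median difference of -0.02 against -0.095 for the 30 genes above the floor without it. In PSMB10, PSME2 and PSMG4 the match was the same and lay within 33 bases of the start, at 21, 28 and 33 bases before it.
PSMB10: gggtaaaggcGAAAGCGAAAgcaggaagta
PSME2: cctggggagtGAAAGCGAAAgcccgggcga
PSMG4: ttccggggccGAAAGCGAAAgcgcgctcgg
These stretches are chr16:67936852-67936881 and chr14:24146619-24146648 on the minus strand and chr6:3258904-3258933 on the plus strand. The 3 genes that share the motif differed by 0.03, -0.01 and -0.07. CCAAT occurred in 18 of 39 genes (39.7% of all genes) and GGGCGG in 26 (48.3% of all), and medians with and without a match were -0.04 and -0.10 for CCAAT and -0.07 and -0.04 for GGGCGG. A match describes these letters only and does not show that a factor binds.

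PSMB9 shares its upstream region with TAP1, which encodes a subunit of the peptide transporter of antigen presentation and is read in the opposite direction. The nearest TAP1 start in the annotation is 488 bases from the PSMB9 start. TAP1 had signals of 7.88 and 8.38, a difference of -0.50, and all 8 of its clusters, haplotype copies included, differed by the same amount. PSMB9 at 0.13 therefore did not follow its head-to-head partner, and PSMB8 (-0.05) and TAP2 (-0.04), which lie beyond TAP1, were near equality. The 250 bases before the PSMB9 start, chr6:32853942-32854191 on the plus strand of GRCh38.p14, are the part of the shared region next to PSMB9, shown with the antioxidant type match in capitals.
PSMB9: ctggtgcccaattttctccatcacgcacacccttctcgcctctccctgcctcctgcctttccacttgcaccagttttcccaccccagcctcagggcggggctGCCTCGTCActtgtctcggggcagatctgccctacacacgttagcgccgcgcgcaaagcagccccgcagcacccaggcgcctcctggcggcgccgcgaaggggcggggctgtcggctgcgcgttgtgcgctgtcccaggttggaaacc
The window holds no paired GAAA in these letters, and nothing follows from that for the factor.

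Genes that act with the proteasome under other names were compared next. The 12 further subunits, chaperones and partners ranged from -0.22 to 0.14, with 8 higher, 4 lower and a median of 0.03, and none reached 1.2-fold. ADRM1, a ubiquitin receptor of the base, had signals of 10.81 and 11.03 (-0.22). SEM1, the smallest lid subunit, had 6.70 and 6.64 (0.06), and POMP, which matures the core, had 10.31 and 10.18 (0.13).

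Regulators of proteasome transcription and assembly spread more widely, with 6 of 11 higher and a median of 0.07. NFE2L1 had signals of 10.07 and 9.86, a difference of 0.21, and NGLY1, the deglycosylase that acts on NFE2L1, had 7.86 and 7.56 (0.30). NFE2L2 went the other way, with 9.76 and 9.98 (-0.22). NFYC, a subunit of the factor that binds CCAAT, differed by 0.29 (8.79 and 8.50), while the other subunits of that factor, NFYA (9.23 and 9.45) and NFYB (8.28 and 8.44), differed by -0.22 and -0.16. FBXO7, a ubiquitin ligase subunit that binds PSMF1, was 1.58-fold lower, with 9.38 and 10.04. It lies on chromosome 22, where 76.6% of genes were lower with a median of -0.11. PSMF1 itself differed by -0.11. DDI2, MAFK and BACH1 were not analysed here.

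Shuttles and receptors that bring cargo had a median of 0.02 over 6 genes, with NBR1, which serves autophagy, at 0.31 (9.28 and 8.97). Ubiquitin and its activating enzymes had a median of 0.04 over 3 genes, and none reached 1.2-fold. Genes of the interferon response and antigen presentation had 8 of 14 higher, 4 lower and 2 equal, with a median of 0.035. ERAP2, an aminopeptidase that trims peptides, was 1.53-fold higher, with 8.09 and 7.48. TAP1 was 1.41-fold lower, and IRF1, which induces the immunoproteasome genes, had a signal of 7.20 on both arrays. With quantile normalisation the median of this list was -0.005 and that of all genes moved from 0.00 to -0.04. The sign of the list thus depended on the scaling, and its distance from all genes was not tested.

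**Figure D4:**
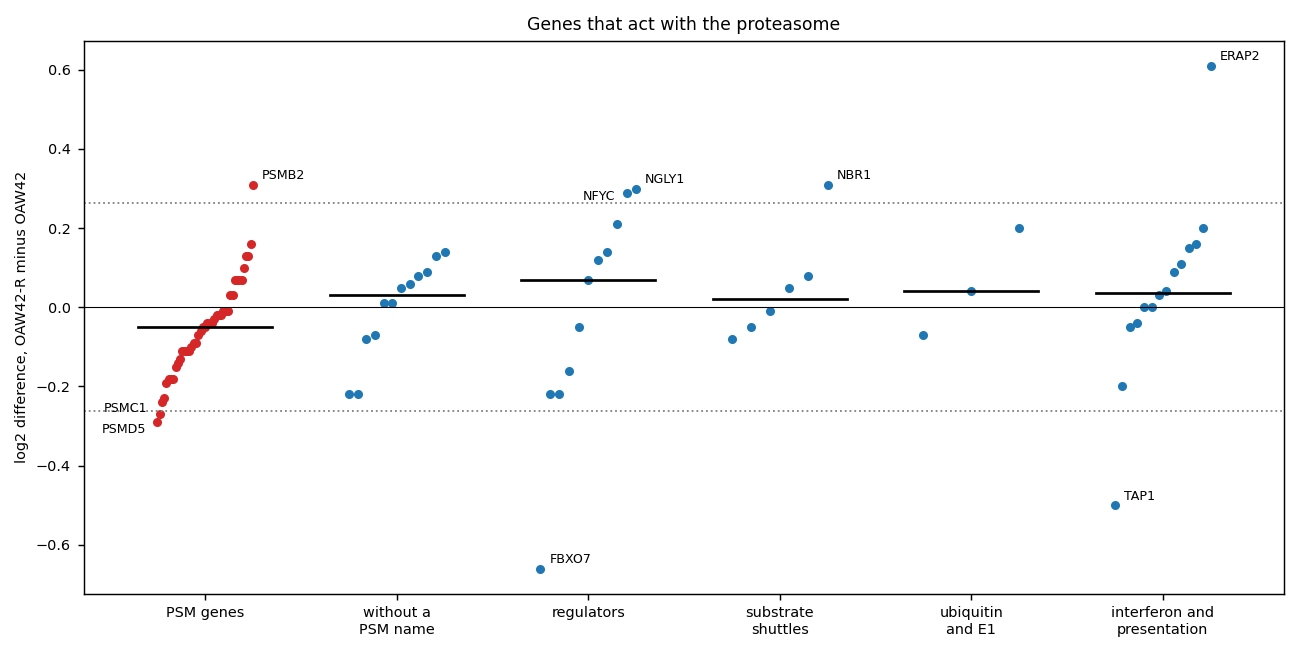
Log2 difference, OAW42-R minus OAW42 (y axis), of each gene above the floor in the proteasome set (red) and in 5 lists of genes that act with it (blue); bars are medians and dotted lines mark 1.2-fold. FBXO7, TAP1 and ERAP2 lie furthest from 0, beyond every proteasome gene.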

How the data were processed

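The authors hybridised total RNA of OAW42-R and OAW42, 1 array each, to the Affymetrix human transcriptome array and normalised with RMA (background correction, quantile normalisation, a summary per transcript cluster). The deposited values are log2 signals with 2 decimals; for RMA's version and the genome build the entry is: not given in the sources used here. The number of arrays limits the precision. Of 67524 clusters, 23780 had 1 gene symbol, 1541 several and 42203 none in the platform annotation; 1462 haplotype clusters were left out. Symbols were updated with RefSeq (GRCh38.p14; 21497 by Entrez identifier, 1974 by symbol, 305 by an older symbol, 4 kept), a table used also for gene order. Of several clusters of a gene, the brightest on average was taken. Samples were grouped by cell line. Differences were counted at 1.2-fold, 1.5-fold and 2-fold, with no test. All proteasome genes could be named; of other lists, genes past 1.2-fold (at most 6 per list) and NFE2L1, POMP, ADRM1, SEM1, IRF1 and TAP1; certain items are not reported here. TAP2, NFE2L2, NFYA, NFYB and the cell markers printed by name were chosen after their values were seen. Genes and lists were chosen with earlier results of these data known. Alternatives were other scalings, clusters, floors, folds, neighbour numbers and motif strands. The choice of cluster per gene and the 1.2-fold count were tested on simulated data. The planted differences were larger than that of any proteasome gene, and the other steps were not tested in this way. Python 3.11.15 was used with pandas 2.3.3, numpy 2.4.6, matplotlib 3.10.9 and statsmodels 0.14.6 (loess).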

Additional observations from a re-analysis of the deposited data

How the results depend on the processing

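With 1 array per line no test and no paired analysis was possible, and no array could be omitted. Each proteasome gene has 1 main cluster, so rules for combining main clusters left its value as it was. Keeping the haplotype clusters changed PSMB8 from -0.05 to -0.03 and PSMB9 from 0.13 to 0.10. The median of the proteasome genes stayed between -0.06 and -0.04 under every setting tried. Its distance from the median of all genes was less stable, and shrank from -0.05 to -0.02 with quantile normalisation. At 1.5-fold and at 2-fold, 0 genes were counted higher and 0 lower, and without chromosome 14, a choice made after the data were seen, 1 was at least 1.2-fold lower. With no floor, which adds genes near background, the median of the proteasome genes of chromosome 14 was -0.095 (with PSMB11 added) and that of fibroblast markers 0.07. Of the 58 genes followed under these settings, PSMB3 alone moved by more than 0.05 under any setting, to -0.025 with quantile normalisation. Other genes named in the text, such as NFE2L2, NFYA, NFYB, TAP2 and most cell markers, were not among them. With 5 and 25 neighbours on each side the median distance from the neighbours was -0.05 and -0.04. On the sense strand alone, motif shares were 28.2% for TGACNNNGC (8.42% of all genes with a window) and 12.8% for the paired GAAA (2.09%). On the same strand they were 30.8% for CCAAT (23.3% of all) and 41.0% for GGGCGG (33.9%).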

Other observations

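Clusters with related names that are not proteasome genes were also on the arrays. PSMD6-AS2, antisense to PSMD6, had signals of 6.50 (OAW42-R) and 5.95 (OAW42), which differ by 0.55, and this compares a level near the floor with one below it, while PSMD6 differed by -0.04. The other antisense clusters, PSMG3-AS1 (0.11) and PSMA3-AS1 (0.03), were within 1.2-fold. So was the cluster with the platform symbol PSMD5-AS1 (0.01), whose updated gene name is CUTALP. PSMC3IP (0.04) and PSME3IP1 (0.09), which encode proteins outside the proteasome, were within 1.2-fold too. PSME2P2, a pseudogene of PSME2, had signals of 10.24 and 10.16 beside 9.98 and 9.99 for PSME2, and near-identical copies may share signal.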
